A study of Homo sapiens with 8 samples.

Results

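The keratin genes were taken as the GENCODE protein-coding genes whose symbols are KRT followed directly by a number, on chromosomes 12 and 17, so that the keratin-associated protein genes (KRTAP) were left out. There were 55 such genes, 27 on chromosome 12 and 28 on chromosome 17, of 19617 protein-coding genes annotated on the chromosomes that the data cover. The series mapped open chromatin in 8 libraries by ATAC-seq, an assay that uses Tn5 transposase to tag accessible DNA. All came from HEK293T, an embryonic kidney line of human origin with the large T antigen of SV40. The E92K libraries, 4 in number, were made from cells that carry an H2A(E92K) lentivector, that is, a histone H2A with a lysine in place of a glutamate of the nucleosome's acidic patch. The H2A libraries, also 4, were made from cells that carry an H2A lentivector without that change. The labels give no treatment for either group and no removal of the cells' own H2A genes, and libraries of cells without a lentivector were not analysed here. They do not say whether replicates were separate cultures, so p-values measure the spread between these libraries, which may be technical.

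Keratins are the intermediate filament proteins of epithelial cells, and each filament pairs a type I keratin with a type II keratin. Chromosome 17 holds the type I genes and chromosome 12 the type II genes, with the type I gene KRT18 at the end of the type II cluster beside its partner KRT8. Simple epithelia, such as those of kidney tubules and gut, use KRT8 and KRT18. KRT5 with KRT14 marks the basal layer of stratified epithelia, KRT1 with KRT10 the layers above it, and other members are reserved for cornea, mouth, hair and its sheaths.

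In HEK293T the KRT8 and KRT18 pair carried promoter peaks in every library, both through the same region at the KRT18 start. Of the 55 keratin genes 52 carried none in any library. Promoters reached 1000 bp to either side of any transcription start site (TSS) of a gene's protein-coding transcripts, and a gene is called open in a library where a peak of that library's list touched it. The remaining member, KRT15, had a promoter peak in E92K replicate 3 alone. Open in all 8 libraries were 3.64% of keratin genes and 68% of all protein-coding genes, and open in none were 94.5% of keratin genes and 25.6% of all. Those open in 1 to 7 libraries made up 6.34% of all genes. The lists held 55527 to 61850 peaks in E92K libraries and 57439 to 62044 in H2A libraries. The genome-wide background, a measure of relative depth, was 2.23 to 2.68 fragments in E92K libraries and 2.52 to 2.93 in H2A libraries. A stretch with no peak is one where none was called at these depths, which does not show that it was inaccessible. The word closed is used below in that sense.

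The labelled cell type, embryonic kidney, was checked against marker promoters. Of 8 embryonic kidney marker genes 7 were open in all 8 libraries, among them PAX2, WT1, SIX2 and LHX1, while PAX8 was closed. Of 5 tubule markers SLC12A1 and LRP2 were open in all 8, and UMOD, AQP1 and SLC34A1 were closed. Of 5 epithelial markers EPCAM, KRT8 and KRT18 were open in all 8, and CDH1 and CLDN4 in some. The calls of KRT8 and KRT18 in all 8 came from the same peaks. None of 6 keratinocyte markers (TP63, DSG3, IVL, LORICRIN, KRT5 and KRT14) was open in any library. Of 4 blood markers PTPRC was open in some libraries and the others in none, and of 4 endothelial markers KDR was open in all 8 and the others in none.

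The sequences that follow show the DNA at the centre of the accessible regions on which the results turn, and beside them promoters of closed keratins. The first is the highest summit of the peak region inside KRT8 (chr12:52903516-52903716), the second that of the region with the highest −log10 q in the clusters, which lies 25.2 kb into the transcription direction from the KRT8 TSS and beyond the gene's end (chr12:52879623-52879823), and the third that of a weaker region close to it (chr12:52884883-52885083). The fourth is the summit window of the region nearest to KRT14 (chr17:41579627-41579827). These 4 windows are hg38, plus strand, 201 bp each. Then come 3 RefSeq promoter windows of GRCh38.p14, from 250 bases before to 50 after a start: KRT10-AS1 (chr17:40818895-40819194, plus strand), an antisense RNA gene that starts inside KRT10 and whose window was open in all 8 libraries, and the closed promoters of KRT10 (chr17:40822565-40822864, minus strand) and KRT5 (chr12:52520345-52520644, minus strand). Capitals mark a GC box (GGGCGG) in the first, second and KRT10-AS1 sequences, the CTCF core in the third line and a TATA box (TATAAA) in the KRT10 promoter, on either strand. The region near KRT14 and the KRT5 promoter hold none of these letters nor an AP-1 site (TGANTCA).
KRT8 intron 1 summit: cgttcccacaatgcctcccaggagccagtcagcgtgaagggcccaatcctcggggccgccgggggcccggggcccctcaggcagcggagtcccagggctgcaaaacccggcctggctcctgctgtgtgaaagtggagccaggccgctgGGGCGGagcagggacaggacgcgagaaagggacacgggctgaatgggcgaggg
Region of highest −log10 q, downstream of KRT8: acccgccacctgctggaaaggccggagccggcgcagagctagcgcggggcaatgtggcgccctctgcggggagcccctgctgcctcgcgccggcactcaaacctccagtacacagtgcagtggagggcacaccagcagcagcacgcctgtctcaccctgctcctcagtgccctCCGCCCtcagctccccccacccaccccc
CTCF core region, downstream of KRT8: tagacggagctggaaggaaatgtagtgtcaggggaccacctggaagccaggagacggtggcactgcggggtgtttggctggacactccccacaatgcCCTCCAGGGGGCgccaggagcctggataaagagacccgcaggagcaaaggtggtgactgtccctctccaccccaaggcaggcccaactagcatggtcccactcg
Region downstream of KRT14: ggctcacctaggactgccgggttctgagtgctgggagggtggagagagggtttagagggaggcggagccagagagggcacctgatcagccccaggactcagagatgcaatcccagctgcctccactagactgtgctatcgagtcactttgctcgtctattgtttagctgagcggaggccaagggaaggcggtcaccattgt
KRT10-AS1 promoter: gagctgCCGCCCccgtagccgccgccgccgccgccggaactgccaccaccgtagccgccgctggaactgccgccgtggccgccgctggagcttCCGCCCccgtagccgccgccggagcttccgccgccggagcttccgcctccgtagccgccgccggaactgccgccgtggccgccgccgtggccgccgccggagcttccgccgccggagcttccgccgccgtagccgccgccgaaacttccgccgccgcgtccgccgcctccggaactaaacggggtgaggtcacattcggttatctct
KRT10 promoter: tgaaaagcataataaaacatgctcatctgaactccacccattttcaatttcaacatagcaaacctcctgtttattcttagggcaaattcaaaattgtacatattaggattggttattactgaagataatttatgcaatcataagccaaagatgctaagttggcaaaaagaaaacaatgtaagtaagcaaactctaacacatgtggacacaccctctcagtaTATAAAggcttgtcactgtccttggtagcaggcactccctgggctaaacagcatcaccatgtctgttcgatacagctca
KRT5 promoter: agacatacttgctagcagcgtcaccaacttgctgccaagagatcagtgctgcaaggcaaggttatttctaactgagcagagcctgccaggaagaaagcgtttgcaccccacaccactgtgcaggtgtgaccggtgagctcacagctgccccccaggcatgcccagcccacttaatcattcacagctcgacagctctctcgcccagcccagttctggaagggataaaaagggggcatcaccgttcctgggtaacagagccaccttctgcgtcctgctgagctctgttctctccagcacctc

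KRT18, the type I partner of simple epithelia, had its peak over its start. The merged region ran from chr12:52948630-52950135 on hg38, and the strongest summit stood 15 to 112 bp upstream of the TSS of the MANE Select transcript, the reference transcript of the gene, at 52949118. The deposited fold enrichment of that summit over its local background was 5.04, 5.33, 5.07 and 7.62 in E92K replicates 1 to 4, against 5.33, 5.01, 4.31 and 4.29 in H2A replicates 1 to 4. Fold enrichment, −log10 q and percentiles are the authors' peak values or ranks of them, used here to describe peaks within a list and not to test a change. E92K replicate 4 was the highest library and the groups overlapped, with means of 5.76 ± 1.24 in E92K libraries and 4.73 ± 0.519 in H2A libraries (SD, n = 4 each). Its −log10 q was 15.1, 18.7, 14.5 and 29.9 in E92K libraries, against 17.2, 13.6, 8.81 and 12.3 in H2A libraries. Within their own lists these peaks ranked at the 54.9th, 60.2th, 54.8th and 71.5th percentiles in E92K libraries, against the 59.3th, 52.4th, 39.7th and 47.7th in H2A libraries. The KRT18 promoter was a mid-ranking peak in both groups. It rested on 38 to 55 fragments at the summit in E92K libraries and 27 to 43 in H2A libraries, as read back from the fold and the p-value.

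KRT8, the type II partner, runs the other way and is transcribed from several starts. The MANE Select TSS lies at 52905076 on the minus strand, and the peak region beside it, chr12:52903290-52904351, fell in intron 1, between exon 1 (52904658 to 52905076) and exon 2 (52901864 to 52902072). Its summit stood 1416 to 1460 bp downstream of that TSS. The fold was 7.96, 8.67, 8.63 and 9.64 in E92K libraries, against 7.41, 8.89, 9.31 and 8.74 in H2A libraries. The groups overlapped, with means of 8.73 ± 0.691 in E92K libraries and 8.59 ± 0.823 in H2A libraries (SD, n = 4 each). The −log10 q was 50.5, 65.5, 60.8 and 75.2 in E92K libraries, against 48.3, 61.1, 66 and 69.3 in H2A libraries, and the within-list rank was the 82.5th percentile at the lowest and the 88.5th at the highest. It was the higher ranking of the pair in each library.

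The open call of KRT8 depended on which start was counted. The edge of the intron peak nearest to the MANE Select TSS lay 890, 1049, 725 and 971 bp from it in E92K libraries, against 1034, 1070, 1049 and 1049 bp in H2A libraries. At that start alone 3 E92K libraries and 0 H2A libraries reached the 1000 bp window, the 4 H2A edges falling 34 to 70 bp beyond it. The call in all 8 libraries came from longer KRT8 transcripts that start at 52949824, 52949842 and 52949874, within the KRT18 peak region. The starts at 52906618 and 52926469 had no peak within 1000 bp in any library. Peak width at the intron was 897, 717, 1034 and 795 bp in E92K libraries and 716, 680, 703 and 721 bp in H2A libraries, so 3 E92K peaks were wider than every H2A peak and 1 was not.

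**Figure D1:**
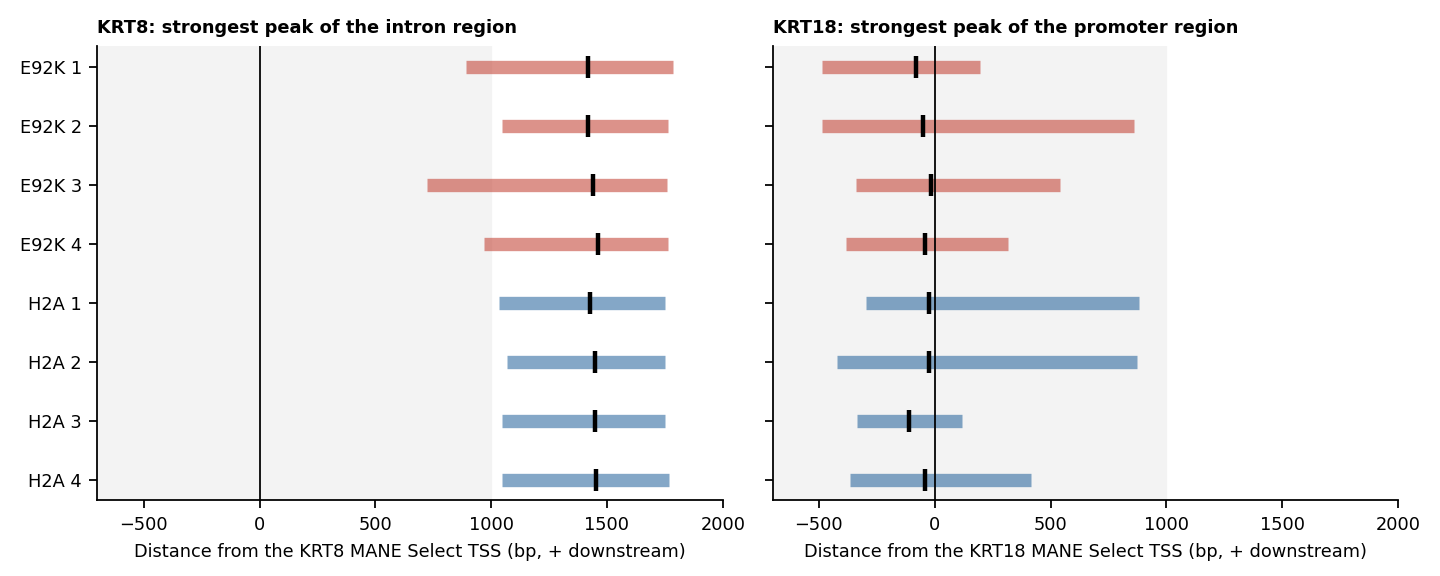
Strongest peak (bar) and its summit (black tick) in the KRT8 intron region and the KRT18 promoter region, by library, E92K above H2A; the x axis is distance in bp from each gene's MANE Select TSS in the direction of transcription, and grey marks the stretch up to 1000 bp downstream. The KRT18 summits lie 15 to 112 bp upstream of the start, and the KRT8 summits lie 1416 to 1460 bp downstream, with the near edge inside the grey stretch in 3 E92K libraries.

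KRT15, a keratin of basal cells and the hair follicle bulge, had the third promoter with any peak. The peak (chr17:41519080-41519544) lay 190 bp upstream of its MANE Select TSS in E92K replicate 3, with a fold of 3.09, a −log10 q of 2.04 and 9 fragments at the summit. It ranked at the 1.45th percentile of its list, close to the smallest −log10 q that the lists hold, which is 2. No other library had it. Nearest outside the promoter window were KRT79 with a peak of 1 H2A library 1977 bp away, KRT19 at 2112 bp, KRT6A at 2121 bp, KRT16 at 2171 bp, KRT36 at 2571 bp and KRT10 at 2931 bp. Only the region near KRT10 among these was present in all 8 libraries.

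By role, 2 of 5 simple epithelial keratins, KRT8 and KRT18, were open in all 8 libraries, both through the KRT18 promoter region. KRT7, a keratin of ducts and glands, KRT19, of ducts and other simple epithelia, and KRT20, of intestinal epithelium, were closed in all 8. None of the 20 stratified and epidermal keratins was open in all 8, and 19 of them, KRT1, KRT5, KRT10 and KRT14 included, were closed throughout. All 9 keratins of the hair follicle sheaths, all 17 hair keratins and the 4 others (KRT23, KRT24, KRT80 and KRT222) were closed in the 8 lists. The median distance from a keratin gene's MANE Select TSS to the nearest region present in all 8 libraries was 51.1 kb, against 0 over all protein-coding genes, and 10.8 kb to a region of any library. Of the 52 closed members 28 lay over 50 kb and 13 over 100 kb from a region present in all 8. The same shares over all genes, and over all genes closed in the 8 lists, were not computed. These counts therefore do not show that closed keratin genes lie farther away than other closed genes.

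No keratin promoter passed the test between the groups. The number of open keratin genes was 2, 2, 3 and 2 in E92K libraries, against 2, 2, 2 and 2 in H2A libraries, a difference made by KRT15 in 1 library. Fisher's exact test, adjusted by Benjamini-Hochberg over all 19617 genes, called 0 keratin genes (0% of all genes), and 0 had an unadjusted p under 0.05, against 6 of all genes (0.0306%). With 4 libraries against 4 this exact test cannot fall below p = 0.0286, which needs a peak in all 4 libraries on one side only. Over all genes 0.0051% had that pattern for E92K and 0.0255% for H2A, and among keratin genes 0 did for either. After adjustment a call would need most of the genes tested to reach that smallest p. The adjusted test thus could not call a gene here, and its 0 calls do not show that the groups are alike.

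The accessible DNA of the clusters lay mostly away from keratin promoters. The chromosome 12 cluster spans 784 kb and held 32 merged regions, of which 13 were present in all 8 libraries. The chromosome 17 cluster spans 970 kb and held 13 regions, of which 3 were present in all 8. Of these 16 shared regions 2 were at promoters of coding genes, 1 in an exon, 3 in introns and 10 between coding genes. Per Mb the chromosome 12 cluster held 16.6 shared regions, against 48 and 64 in the 500 kb on its sides and 12.2 over the genome. The chromosome 17 cluster held 3.09 per Mb, against 30 and 44 in its flanks.

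**Figure D2:**
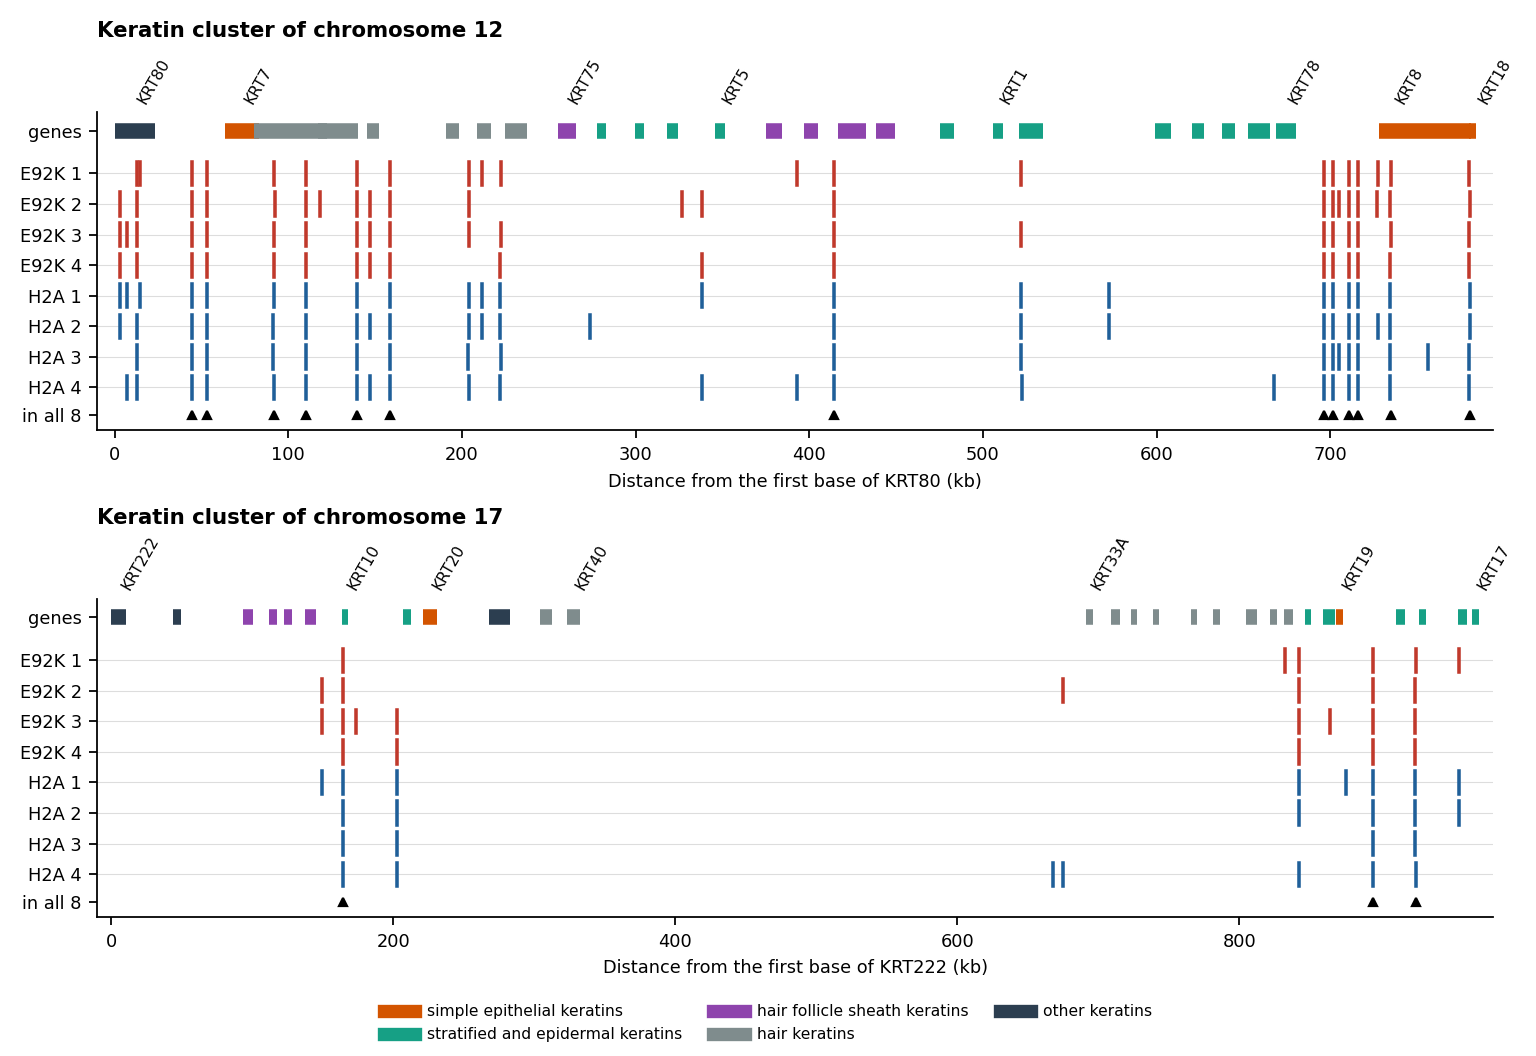
Keratin genes (bars, coloured by role) and peaks (ticks, at the strongest peak of each merged region, 1 row per library, E92K in red above H2A in blue) across the clusters of chromosomes 12 and 17, on an axis of kb from the first gene; triangles mark the 13 and 3 regions present in all 8 libraries. Peaks crowd at the ends of the chromosome 12 cluster, and no library has a peak across most of the middle of the chromosome 17 cluster.

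The end of the chromosome 12 cluster, from KRT78 to KRT18, was the densest of the 3 stretches into which that cluster was divided at KRT75 and KRT78. It held 6 shared regions in 104 kb, or 57.8 per Mb, and they included the KRT8 intron and the KRT18 promoter. The region with the highest −log10 q of all, chr12:52879339-52880393, lay between KRT78 and KRT8, and its highest summit is the second sequence above. Its −log10 q was 80.4, 102, 77.5 and 84.7 in E92K libraries, against 77.6, 63.8, 100 and 105 in H2A libraries, with a fold of 10.5 ± 0.351 in E92K libraries and 9.97 ± 1.08 in H2A libraries (SD, n = 4 each). The groups overlapped. The region chr12:52884767-52885276, with the CTCF core in the third sequence, was weaker, at a −log10 q of 10.1 to 19.6 in E92K libraries and 14.5 to 20.2 in H2A libraries. The letters searched are part of the binding motif of CTCF, which bounds chromatin loops, and a match to them is not a bound site. Other spellings of the motif were not searched, in this region or in the others.

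Of both regions nearer to KRT78, chr12:52865254-52865788 was, among the 16 shared regions of the clusters, the one whose groups did not overlap in −log10 q. Over the 36895 regions of the genome in all 8 libraries, every E92K library lay above every H2A library in −log10 q at 2.56%, and every H2A library above every E92K library at 2.85%. At chr12:52865254-52865788 the −log10 q was 19.9, 11.9, 18 and 20.2 in E92K libraries, against 22.2, 23.9, 23.7 and 23.7 in H2A libraries. Every H2A library stood above every E92K library, also in fragments at the summit, which were 36, 30, 34 and 35 in E92K libraries against 43, 42, 42 and 46 in H2A libraries. The share of regions over the genome that separate in fragments was not computed. The fold did overlap, at 7.35, 5.12, 6.95 and 7.71 in E92K libraries and 6.97, 7.79, 7.69 and 6.99 in H2A libraries, and the local background was 4.2 ± 0.598 fragments in E92K libraries against 5.04 ± 0.581 in H2A libraries (SD, n = 4 each). The part of depth in the difference was not tested. The other, chr12:52870376-52871164, had a −log10 q of 11.5 to 23 in E92K libraries and 16.1 to 27.4 in H2A libraries, so there the groups overlapped. Of the regions missing from some libraries but present in at least 2 of each group, 1 in the KRT80 intron (chr12:52181648-52182239), named after its values were seen, also had groups that did not overlap. Its −log10 q was 7.7, 10.2, 12 and 11 in E92K libraries, against 4.8, 5.4 and 4.1 in H2A replicates 2 to 4. Its fold was 4.88 ± 0.551 in E92K libraries (SD, n = 4) and 3.45 ± 0.198 in H2A libraries (SD, n = 3), and H2A replicate 1 had no peak there. Every E92K library thus stood above every H2A library with a peak, in the other direction from the region near KRT78. For regions missing from some libraries, the share over the genome with such a separation was not computed. Full separation is more common by chance with fewer values on a side.

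At the other end of the cluster the shared regions lay among closed hair keratins and upstream of closed KRT7. The region chr12:52213236-52214145, centred 19.6 kb upstream of the KRT7 TSS and at the promoter of the noncoding gene LINC02874, had a −log10 q of 51.6, 58.1, 31.2 and 47 in E92K libraries, against 45.7, 37.1, 48 and 65.3 in H2A libraries. Within KRT86, a hair keratin gene, an intronic region (chr12:52278700-52279615) coincided with the start of a noncoding RNA and had a −log10 q of 40.3 to 56 in E92K libraries and 31.8 to 54.7 in H2A libraries. A region over the last exons of KRT86 and the start of another noncoding RNA (chr12:52308088-52308934) reached 32.5 to 43.8 in E92K libraries and 24.5 to 51.7 in H2A libraries. The coding starts of KRT86 had no peak. Upstream of KRT83, another hair keratin, chr12:52327265-52328064 stood 6.3 kb from the TSS. Its −log10 q was 10.4 to 22.9 in E92K libraries and 13.4 to 30.9 in H2A libraries. It held the AP-1 letters within 100 bp of its highest summit, though not at the summit itself. Within 150 bp of their summits 1 of the 16 shared regions (6.25%) held these letters, against 8.13% of shared regions over the genome. Between KRT74 and KRT72, keratins of the inner root sheath, chr12:52582776-52583441 was the one shared region from KRT75 to KRT78, with 9.64 to 25.2 in E92K libraries and 12.6 to 20.2 in H2A libraries.

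On chromosome 17 a pair of strong regions stood near closed genes. The region chr17:41579250-41580153 lay between KRT9 and KRT14, centred 7.2 kb downstream of the KRT14 TSS, and is the fourth sequence above. Its −log10 q was 37.5, 53.7, 55.1 and 46.7 in E92K libraries, against 53.7, 47.6, 46.3 and 61.9 in H2A libraries, and the groups overlapped. The region chr17:41548717-41549853, centred 21 kb upstream of KRT19 and inside the noncoding gene LINC00974, had 54.1, 66.5, 48.9 and 61.6 in E92K libraries, against 80, 58.1, 65.6 and 81.2 in H2A libraries. The highest H2A libraries were above all E92K libraries there, and the lowest H2A library was within their range. The third, chr17:40818773-40819683, was weak and covered the KRT10-AS1 start over exon 7 of KRT10 (40818787 to 40819161), the intron before it and part of exon 6. Its −log10 q was 7.69, 3.33, 8.18 and 5.57 in E92K libraries, against 3.24, 6.56, 2.88 and 2.35 in H2A libraries, with 11 to 17 fragments at the summit over the 8 libraries. KRT10 itself, whose protein marks the suprabasal epidermis, had no peak at its start.

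**Figure D3:**
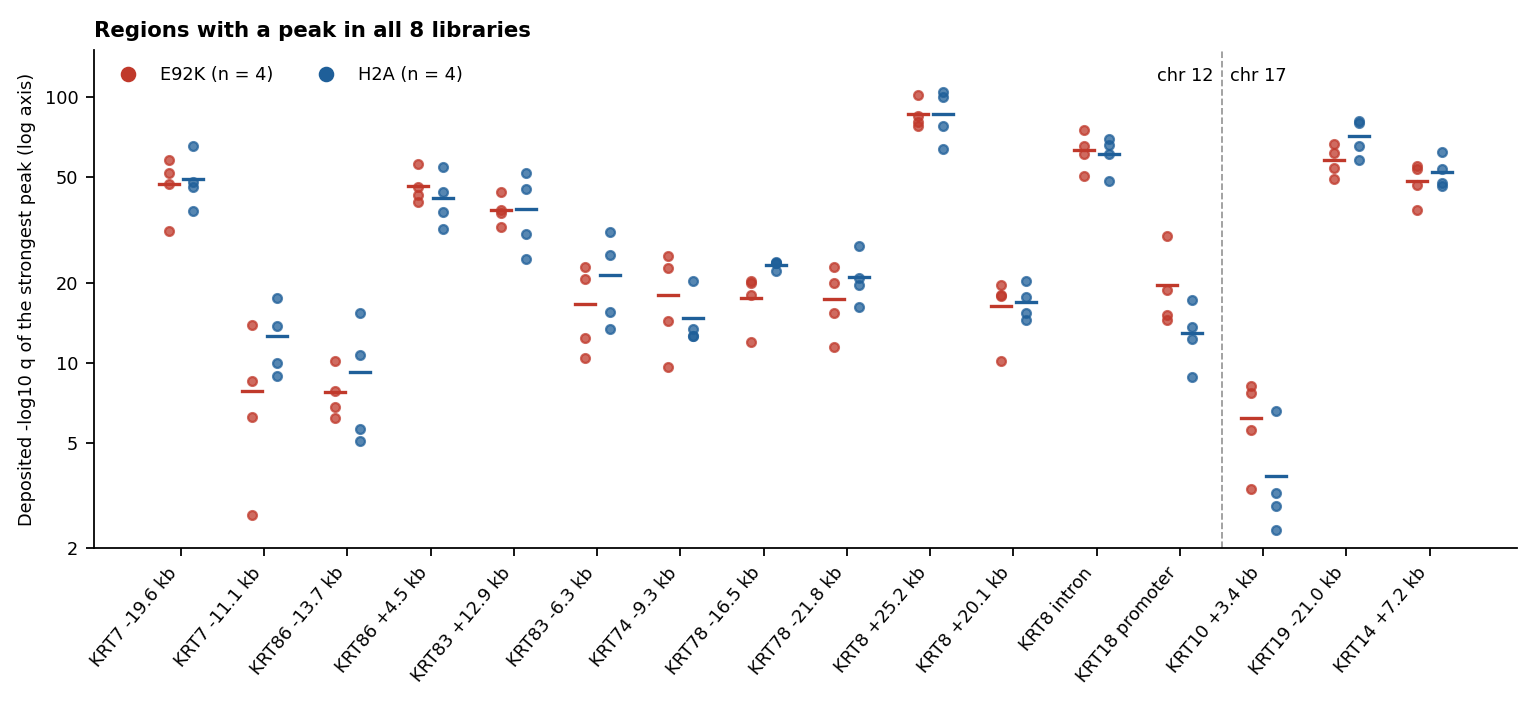
Deposited −log10 q (log axis) of the strongest peak in each of the 16 regions present in all 8 libraries, with 1 point per library, a line at each group's mean, and E92K left of H2A; regions are named by the nearest keratin gene and the distance of their centre from its MANE Select TSS (minus upstream, plus downstream). The region with the highest values, 25.2 kb downstream of the KRT8 TSS, has 63.8 to 105, and the region 16.5 kb upstream of KRT78 is the one where all H2A points lie above all E92K points.

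Over the 16 shared regions the groups overlapped in −log10 q at 15 and in fold at all 16, and the mean fold was higher in E92K libraries at 9. Over the 36895 regions of the genome in all 8 libraries, every E92K library lay above every H2A library in fold at 3.96%, and every H2A library above every E92K library at 1.56%. Shared regions were 907 bp wide in the median, against 440 bp for the other regions of the clusters. A region is the union of the peaks of all lists that hold it, so more lists by themselves tend to make it wider. Of the 45 regions 35.6% were in all 8 libraries, against 38.1% over the genome, and 22.2% in 1 library, against 26.5%. None was present in 3 or more libraries more in E92K than in H2A, or the reverse, against 1.16% and 1.38% of all regions. Fisher's exact test, adjusted by Benjamini-Hochberg over 96872 regions, called 0 in the clusters and 0 over the genome (0%). As with genes, a call would need most regions to reach the smallest possible p, so the adjusted test could not make one. None in the clusters had an unadjusted p under 0.05, against 313 (0.323%) over the genome. More E92K than H2A libraries held the region at 11 and more H2A than E92K libraries at 13. The largest differences were of 2 libraries, and these regions were chosen after their values were seen. One over the last exon of KRT77 (chr12:52690718-52691353) and one between KRT10 and KRT12 (chr17:40857076-40857414) were in 2 E92K and 4 H2A libraries, and one between KRT77 and KRT76 (chr12:52741491-52741785) was in 0 E92K and 2 H2A libraries.

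No value of a whole cluster passed the test between the groups. The chromosome 12 cluster had 22, 22, 20 and 18 peaks in E92K libraries, against 22, 24, 21 and 22 in H2A libraries, a difference of −1.75 (exact permutation test over 70 assignments, two-sided, p = 0.286, adjusted p = 1 for each of the 4 cluster values). The chromosome 17 cluster had 6, 6, 8 and 5 peaks in E92K libraries, against 8, 6, 4 and 7 in H2A libraries, a difference of 0 (p = 1 by the same exact test). The length covered by peaks was 11845 ± 715 bp in E92K libraries and 11959 ± 590 bp in H2A libraries on chromosome 12, and 3496 ± 414 bp in E92K libraries and 3539 ± 617 bp in H2A libraries on chromosome 17 (SD, n = 4 each; exact permutation p = 0.657 and 0.886). The groups overlapped in all 4 values.

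Between these regions lay long stretches without a peak in any library. The longest, chr17:40857415-41322306, was 464.9 kb and held 5 keratin genes, KRT12 of the cornea, KRT20, KRT23 and the hair keratins KRT39 and KRT40, with 34 keratin-associated protein genes, whose products embed hair keratin filaments. Of 96849 stretches between regions over the genome 262 (0.271%) were as long. The next, of 157.2 kb, held 8 hair keratins, from KRT33A to KRT35, and one of 154.8 kb held KRT222, KRT24 and the inner root sheath keratins KRT25 to KRT28. On chromosome 12 the longest was 107.3 kb with KRT72, KRT73, KRT2 and KRT1, and the next 94.5 kb with KRT76, KRT3, KRT4 and KRT79. Over the genome 4.25% of stretches were as long as the 107.3 kb one.

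Reads that match several places can be lost before peaks are called, and keratin genes have close copies. In the 464.9 kb stretch 82.8% of 32-base words occur once in the genome, and in the other 4 named stretches 89.4% to 97.2% do. Within 1000 bp of the MANE Select TSS the median over members was 97.4% unique, and 39 of the 52 closed members had at least 90%. The lowest were among the near-identical KRT6 genes, KRT6C with 50.8% and KRT6B with 57.1%, with KRT81 at 59.1% and KRT16 at 62.7%. KRT8 and KRT18, which have peaks, had 76.9% and 73.6%. How the authors treated reads with several matches is not given here, and their part in the missing peaks was not tested.

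Most closed members lay in CpG-poor DNA, a property that the choice of genes did not use. The CpG ratio is the number of CpG dinucleotides within 500 bp of the MANE Select TSS over the number that the C and G content predicts, and it is high at CpG islands. Its median was 0.269 over keratin genes and 0.727 over all protein-coding genes, and 47 of the 55 keratin genes (85.5%) were under 0.4, against 24.3% of all. KRT18 had 0.691, and the closed simple epithelial genes KRT7 and KRT19 had 0.713 and 0.752, as high as open KRT18. KRT20 had 0.435 and KRT8 0.344. All 20 stratified and epidermal keratins were under 0.4. Among all genes with a ratio of 0.6 to 0.8, 85.8% were open in all 8 libraries, while of the 4 keratin genes in that range KRT18 was open and KRT7, KRT19 and the sheath keratin KRT72 were closed. Among all genes under 0.4, 15.6% were open in all 8, and of the 47 keratin genes there KRT8 was (2.13%). That ratio of KRT8 is at its MANE Select TSS, while its call in all 8 libraries comes from other starts that lie in the KRT18 region.

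**Figure D4:**
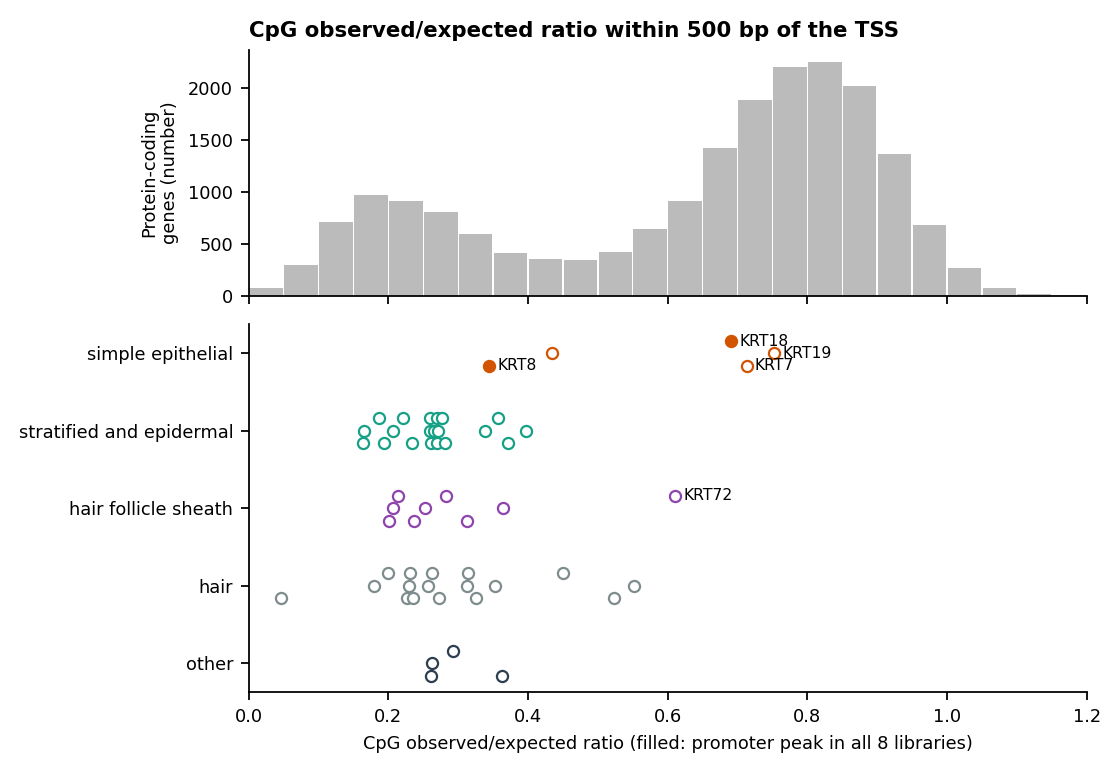
CpG observed/expected ratio within 500 bp of the MANE Select TSS for all protein-coding genes (top, number of genes per bin of 0.05) and for each keratin gene by role (bottom, 1 circle per gene, spread vertically for legibility; filled where a promoter peak was called in all 8 libraries). Most keratin genes lie under 0.4, and KRT7, KRT19 and KRT72, which have no promoter peak, lie beside open KRT18 in a range of 0.611 to 0.752.

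The RefSeq promoter table held 34 of the 55 members. A TATA box stood in 21 of these windows (61.8%), KRT10 among them, against 11.6% of 34789 windows over the genome. A GC box stood in 6 (17.6%), against 44.9%, and the AP-1 letters in 0, against 7.69%. The GATA letters (AGATAA) stood in 14 (41.2%), against 10.4%. Among simple epithelial keratins the table held KRT8, at its start at 52926469, and KRT20, and neither window had a TATA box or a GC box in these letters. Within 150 bp of the summits of the 16 shared regions 7 had a GC box (43.8%), against 37.9% of shared regions over the genome, 7 the AP-2 letters (GCCNNNGGC), against 21.8%, 1 the CTCF core, against 5.36%, and 0 a TATA box, against 10.8%. Both strands were searched, and an AP-2 match can share bases with a GC box.

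Promoters of genes whose products work with keratins were counted in the same way. Of 24 anchoring genes of desmosomes, hemidesmosomes and linkers 12 (50%) were open in all 8 libraries, among them DSP, the desmosomal plakin that holds keratin filaments, JUP, PKP2, PKP4, DSG2 and DSC2, and 5 in some. The 7 closed were PKP1, PKP3, DSG1, DSG3, DSG4, EVPL and CDSN. Of 34 genes for transcription factors that act on keratin genes 24 (70.6%) were open in all 8, among them GRHL1, GRHL3, ELF3, KLF4, KLF5 and OVOL2, and TFAP2B in some. The 9 closed included TP63, the regulator of the basal epidermis, GRHL2, EHF, OVOL1 and CDX1. Of 16 genes for other intermediate filament proteins or, as with TCHH (trichohyalin), a protein bound to filaments, 10 (62.5%) were open in all 8, among them VIM, NEFL, NEFM, INA, NES and SYNM, NEFH was open in some, and DES, GFAP, PRPH, BFSP2 and TCHH were closed. Over all genes the share was the 68% given above. Of 94 keratin-associated protein genes KRTAP5-5 was open in all 8 (1.06%) and the other 93 in none.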

How the data were processed

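Each of the 8 ATAC-seq libraries had 1 peak list without a header, in the 10-column narrowPeak layout, called per library by the authors. Reads were aligned to hg38 per the labels. Not given in the sources used here are the aligner, the peak caller and the handling of duplicates, of reads with several matches and of the Tn5 offset, and each can change which weak peaks are called. The deposited score is a whole number per peak that follows the −log10 q. The deposited fold is a ratio of a summit to its local background. P-values and q-values were deposited on a −log10 scale, with a smallest −log10 q of 2.

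A peak was a distinct interval, represented by its strongest summit, whose fragments were read back from the deposited fold and p-value (within 0.001 of the −log10 p in at least 99.79% of summits). Genes and starts were those of GENCODE version 44 (GRCh38, the same build as hg38), and peak ends lay within the hg38 chromosome lengths. Peaks of the 8 lists that overlapped or touched were merged, and a library held a region where at least 1 bp overlapped. Presence was compared by two-sided Fisher's exact tests over all genes or regions, and values per library by exact permutation tests, with Benjamini-Hochberg adjustment at 0.05. Scripts used Python 3.11.15, pandas 2.3.3 and SciPy 1.17.1, and the tests were checked on simulated data. Sequences and motifs came from hg38 and the RefSeq promoter table.

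The members, the gene lists and their roles were chosen with earlier results of these data known. By rule the text names members with any promoter peak, the textbook genes KRT1, KRT5, KRT10, KRT14 and KRT20, up to 10 shared regions per cluster ranked by their lowest within-list percentile, regions that differ by 3 or more libraries and up to 6 examples per list. Other closed members and list genes are named to complete a count. Correlations of deviations between same-numbered libraries were −0.00918 to −0.00149, so replicate numbers were not used as pairs.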

Additional observations from a re-analysis of the deposited data

Results flagged for a closer look

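Of 54 sets of 4 libraries 4 held a library far from the other 3, and chance alone marks about 1 set in 20 where values are continuous and sets independent. Here several sets describe the same peak, and a gene count that differs in 1 library only is always marked. E92K replicate 3 had 3 keratin genes with a promoter peak where the other E92K libraries had 2, because of its weak KRT15 peak. E92K replicate 4 had a fold of 7.62 at the KRT18 promoter, against 5.04, 5.33 and 5.07 in the other E92K libraries, and its value lies above all H2A libraries too. At the region between KRT74 and KRT72 (chr12:52582776-52583441) H2A replicate 4, the list with the most peaks, had a −log10 q of 20.2, against 12.6, 12.6 and 13.4 in the other H2A libraries. At the region upstream of KRT78 (chr12:52865254-52865788) H2A replicate 1 had a −log10 q of 22.2, against 23.9, 23.7 and 23.7 in the others, a narrow set in which all 4 lie above the E92K libraries.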

How the results depend on the processing

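Of 43 values under alternatives other than leaving out a library 38 counted as the same. Among these, tested differences did not turn round in direction and stayed on their side of the threshold. The peak difference of 0 on chromosome 17 has no direction to turn. Counts of calls and of genes open in all 8 libraries were equal, although the 0 calls could not change. The number of open genes per library moved by less than the spread between libraries. No exact permutation p fell under 0.05 in any setting, the lowest being 0.2. The covered length turned round in direction in 3: on chromosome 17 it was 210 bp higher in E92K libraries with peaks of −log10 q of at least 5 (exact permutation p = 0.457) and 107 bp higher with the same number of peaks, 55527, per list (p = 0.714), and on chromosome 12 it was 9 bp higher with equal peak numbers (p = 0.971). The cause was not tested. The peak difference on chromosome 12, −1.75 as reported, was 0 with summits counted one by one. That on chromosome 17, 0 as reported, was 0.75 with −log10 q of at least 5, 0.5 with equal peak numbers and −1.25 with the span widened by 50 kb. The difference of 0.25 open genes was 0 with −log10 q of at least 5, equal peak numbers, a promoter of 2000 bp or the gene's 5′ end as its only start. With 1 start per gene, that of the MANE Select transcript, an alternative chosen after seeing the data, keratin genes open in all 8 libraries numbered 1 in place of 2 and the difference per library was 1 gene, since KRT8 then counts in 3 E92K and 0 H2A libraries. A promoter of 2000 bp added KRT79 in 1 H2A library.

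Leaving out each library in turn gave differences of −2.25 to −0.917 peaks on chromosome 12, −0.75 to 0.583 peaks on chromosome 17, −394 to 239 bp covered on chromosome 12, −337 to 143 bp on chromosome 17 and 0 to 0.333 open keratin genes per library, the 0 without E92K replicate 3. The 2 genes open in every remaining library were the same throughout. The 0 calls among promoters and among regions did not change either, but the adjusted test could not have made a call with so few libraries. The correlations given above showed no sign that replicate numbers pair the libraries, but they do not settle it. With replicate number as a block, the differences were −1.75 peaks on chromosome 12 (sign flips, exact permutation p = 0.25), 0 on chromosome 17 (p = 1), −114 bp (p = 0.875), −42.5 bp (p = 0.875) and 0.25 open genes. No p below 0.125 is possible with these sign flips. Peak lists hold no read totals, so a weak promoter peak such as that of KRT15, with 9 fragments, lies at the limit of what the depth can show.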
